A study of Mus musculus with 12 samples.

Results

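The 38 integrin and laminin genes of the mouse were read in RNA from sensory ganglia. They are the genes whose symbols match the patterns Itga, Itgb and Lama, Lamb or Lamc followed by a subunit number or letter, and they make up 38 of the 22609 genes counted: 18 integrin α subunits, 9 integrin β subunits and 11 laminin chains. The RNA came from neuron-enriched fractions of dorsal root ganglia (DRG, which serve the trunk and limbs) and trigeminal ganglia (TG, which serve the head) of naive wild-type (Wt) mice of strain C57BL by the labels and C57BL/6J by the methods, 3 to 4 months old by the labels. The methods give a younger age, take the L3-L5 DRG and state that the females were in the estrous phase. There were 4 groups of 3 libraries: female TG, male TG, female DRG and male DRG. None was treated and all went through enzymatic dissociation and a Percoll density gradient. Whether a library holds 1 animal or several is not given in the sources used here, so p-values measure the spread between libraries. Whether the TG and DRG libraries with equal numbers came from shared animals is not given either, and the models of all 12 libraries treat them as independent.

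Integrins are receptors of the cell surface built from 1 α and 1 β subunit, which join matrix proteins or partner cells outside to the cytoskeleton inside. Laminins are trimers of an α, a β and a γ chain, and they are core proteins of the basement membrane, the sheet that surrounds the glia-wrapped neuron body, the axon with its Schwann cell, and the blood vessel. In peripheral nerve the laminin α2 chain is known for its place in the Schwann cell basement membrane, and integrin α6β1, α7β1 and α6β4 and dystroglycan are known as its receptors there.

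Levels are given as CPM, the reads of a gene relative to the library's reads in genes after scaling by TMM factors (which make libraries of different composition comparable), and between genes only as CPM per kilobase of exon. Reads in genes ran from 7511765 to 15396090 per library, so that 3 counts, taken as the floor, equal 0.207 to 0.357 CPM. Of all reads in or outside genes, those outside made up 43.5% to 50.4% in females and 37.6% to 47.9% in males. Xist had 9351 to 15691 counts in female and 4 to 11 in male libraries. The summed CPM of 13 sensory neuron markers was 8181 to 13993 (median 8599) in female and 8509.8 to 14129.5 (median 11663) in male libraries, and none of the 13 was at 0 in any library. The fractions also held markers of satellite glia, at 3234 to 7779.6 (median 6453) CPM in female and 3653 to 6410.1 (median 5722) in male libraries, and of myelinating Schwann cells, at 2127 to 3191 (median 2553) and 2162 to 3008 (median 2556). Although these sums overlapped, 8 of 9 Schwann cell markers had a positive averaged log2 fold change, female over male (median 0.60, 5 at an unadjusted edgeR p under 0.05, 0 at an adjusted one). Of all genes 50.4% were positive and 26% had an unadjusted p under 0.05. Positive values were also found for 9 of 10 fibroblast, 10 of 10 endothelial, 7 of 9 mural, 10 of 11 macrophage, 6 of 10 satellite glia and 6 of 13 sensory neuron markers tested. At an adjusted edgeR p under 0.05, 3 endothelial, 3 mural, 3 macrophage and 1 fibroblast marker were higher in females. Of satellite glia markers 1 was lower, and of sensory neuron markers 1 was higher and 1 lower. Of all genes 2.39% were higher and 5.5% lower. In such bulk RNA, fewer cells of a type and less RNA per cell cannot be told apart.

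The promoters of 3 members are shown because much of the text below turns on these genes: Lamb1 and Lamb2, the alternative β chains of one trimer position, of which Lamb2 passed the adjusted p for sex and Lamb1 did not, and Itgb1, the shared β subunit and most abundant member. Each run is the RefSeq window from 250 bases before to 50 bases after the gene's start in build GRCm38.p6, printed 5′ to 3′ in the direction of the gene, with the GC box letters GGGCGG, or CCGCCC on the other strand, in capitals.
Lamb1 (chr12:31265043-31265342, plus strand): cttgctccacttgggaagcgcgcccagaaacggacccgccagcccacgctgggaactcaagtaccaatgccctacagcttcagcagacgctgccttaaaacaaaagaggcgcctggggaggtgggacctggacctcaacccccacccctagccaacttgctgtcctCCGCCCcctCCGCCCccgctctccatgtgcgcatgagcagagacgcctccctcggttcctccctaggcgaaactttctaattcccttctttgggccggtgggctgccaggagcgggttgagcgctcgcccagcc
Lamb2 (chr9:108479612-108479911, plus strand): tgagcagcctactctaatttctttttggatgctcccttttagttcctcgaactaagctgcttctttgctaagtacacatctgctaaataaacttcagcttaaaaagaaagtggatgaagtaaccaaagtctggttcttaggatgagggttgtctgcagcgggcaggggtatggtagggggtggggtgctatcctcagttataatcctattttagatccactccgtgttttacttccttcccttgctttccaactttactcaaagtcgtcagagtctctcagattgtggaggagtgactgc
Itgb1 (chr8:128685404-128685703, plus strand): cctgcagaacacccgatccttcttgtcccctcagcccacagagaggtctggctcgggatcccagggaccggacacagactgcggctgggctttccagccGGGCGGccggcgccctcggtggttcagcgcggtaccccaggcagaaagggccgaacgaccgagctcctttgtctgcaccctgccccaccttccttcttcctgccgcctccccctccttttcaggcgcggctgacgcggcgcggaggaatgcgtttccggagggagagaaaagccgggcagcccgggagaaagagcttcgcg
The Lamb1 window held 2 matches, both CCGCCC, the Itgb1 window held 1, GGGCGG, and the Lamb2 window held 0. The G and C share was 63.7% in Lamb1, 44% in Lamb2 and 67.3% in Itgb1. Of all 32851 promoter windows in the table, 35.7% held the letters on either strand, and of the 27 windows that matched 24 members, 12 (44.4%) did. A match describes the letters and is not a binding site.

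Itgb1, the β1 subunit that pairs with most α subunits of matrix receptors, had the highest level of all members in each of the 12 libraries. In TG it had 106, 96.3 and 141 CPM per kb in the 3 female libraries and 197, 159 and 184 in the 3 male libraries. In DRG the values were 124, 129 and 192 in females and 141, 172 and 212 in males. It supplied 58.4 to 86.8% of the summed β subunit level, with a median of 77.4%. Itgb8 followed among the β subunits (13.1 to 24.3, median 17.6 CPM per kb over the 12 libraries), then Itgb3 (7.27 to 28.4, median 15.7). Both pair with αv, and β8 is known for the release of TGF-β from its latent form. Itgb8 exceeded Itgb3 in 7 of the 12 libraries, so their order does not stand.

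**Figure D1:**
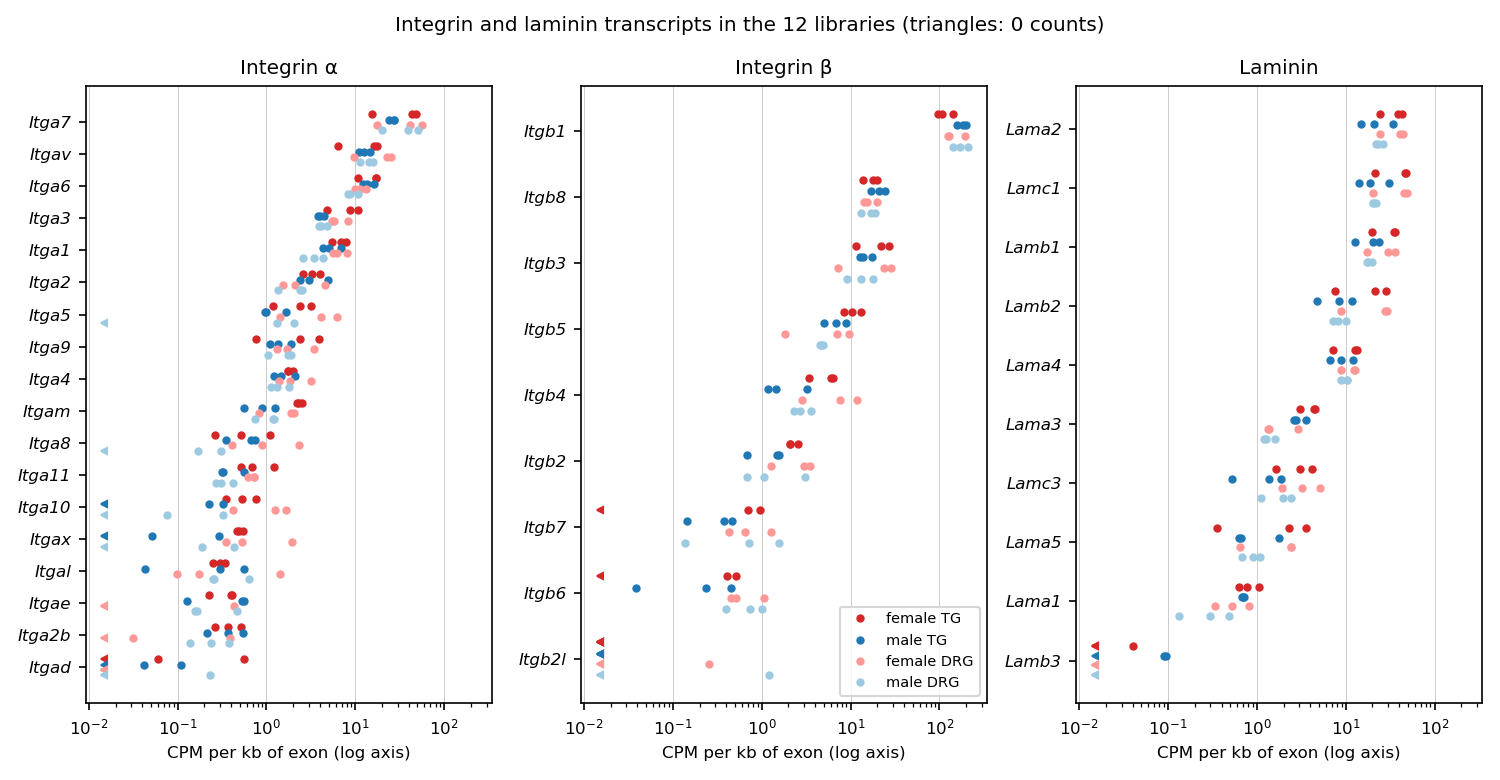
Level of 37 members in every library, in CPM per kilobase of exon on a log axis, with genes ordered by their mean in each panel. Points are single libraries coloured by group and triangles at the left edge are libraries with 0 counts. Itgb1 lies above every other member in all 12 libraries, and members at the foot of each panel reach 0 counts.

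Itga7, the α subunit of the laminin receptor α7β1, led the α subunits with 15.2 to 56.0, median 33.4 CPM per kb. Libraries of one group differed widely, with 48.5, 43.7 and 15.2 in female TG and 50.8, 39.6 and 20.0 in male DRG. Itgav, which pairs with β1, β3, β5, β6 and β8 and binds proteins with the RGD sequence such as vitronectin, had 6.44 to 25.5, median 14.4 CPM per kb. Itga6, the α partner of β1 and β4 in laminin receptors, had 8.25 to 17.2, median 11.8. Next came Itga3, a further laminin receptor subunit (3.83 to 10.9, median 4.79), and the collagen receptor subunits Itga1 (2.58 to 8.0, median 5.54) and Itga2 (1.35 to 4.92, median 2.56). Itga3 exceeded Itga1 in 6 of 12 libraries, so these neighbours were not ordered, whereas Itgb1 exceeded Itga7 in 12 of 12.

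Grouped by ligand, the laminin receptor α subunits (Itga3, Itga6 and Itga7) made up 54.4 to 72.4% of the summed α level, more than all other α subunits together in every library. The collagen receptor subunits (Itga1, Itga2, Itga10 and Itga11) summed to 5.08 to 12.7 CPM per kb and the RGD receptor subunits (Itga5, Itga8, Itgav and Itga2b) to 8.67 to 31.2. The leukocyte subunits (Itgal, Itgam, Itgax, Itgad and Itgae) summed to 1.20 to 5.41. Without Itgae, the partners of Itgb2 among them summed to 0.641 to 5.41, and Itgb2 itself had 0.676 to 3.51. At the low end, Itgad, a leukocyte subunit, Itgb2l, a β2-like subunit, and Lamb3, the β chain of epithelial laminin-332, had 0 counts in at least 6 libraries and were not tested for any difference.

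On the ligand side, Lama2 was the most abundant α chain, with 15 to 43.9, median 25.2 CPM per kb, and held 58.1 to 70.5% of the summed α chain level. Lama4, an α chain of vessels and of nerve, held 19.3 to 29.9%, with 6.73 to 13.3, median 10.4 CPM per kb. Lamc1, the γ chain of most laminins, had 14.2 to 48.5, median 21.4 CPM per kb and made up 88.8 to 94.4% of the γ level. For the β position, Lamb1 (12.8 to 36.3, median 20.1) exceeded Lamb2 (4.76 to 29.2, median 9.40) in all 12 libraries. The leading chain of each position was α2, β1 and γ1, the chains of laminin-211, beside the laminin receptor subunits that led the integrins.

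Beyond their names, the 3 families were set beside all genes by exon length and base composition, in both of which single members varied widely. Exon length, as the union of all exons, had a median of 9.52 kb in the 11 laminin genes (4.37 to 12.07), 5.58 kb in the 18 integrin α genes (4.05 to 13.98) and 4.08 kb in the 9 integrin β genes (2.74 to 11.06). The median was 2.84 kb in the 21627 genes with an annotation. The median GC content of the exons was 52.7%, 51.7% and 52.3% in the 3 families and 49.2% over all genes. Single genes ran from 44.4 to 59.9%, 41.5 to 58% and 39.5 to 59.4% in the 3 families, on both sides of the median of all genes.

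The first comparison asked which transcripts differ between female and male TG. The criteria of the study asked for a fold above 2, an unadjusted p under 0.05 and, here, a mean of more than 1 CPM in the higher sex. In TG 5 of 35 members tested met them, all higher in females: Itgb4, Itgam, Itga3, Lamb2 and Lamc3. Of all 14009 genes tested 5.15% met them in this direction and 2.26% in the other, where 0 members did. No member passed an adjusted p of 0.05 in edgeR (smallest 0.154), against 0.0357% of all genes. An unadjusted p under 0.05 was found for 9 of the 35 (25.7%) and for 20.7% of all genes. DESeq2 put 3 members under an adjusted p of 0.05, against 817 of all 14009 genes. Without female TG 1 or female TG 2 the count of 5 went to 2, without male TG 1 or male TG 2 to 3, and without female TG 3 or male TG 3 to 9. In that order, all genes higher in females by the criteria numbered 429 and 308, 444 and 622, and 1301 and 1013. Those lower numbered 430 and 277, 151 and 245, and 1231 and 584. With every library there were 721 and 317. Without female TG 3 the adjusted p was under 0.05 for 13 members, against 3394 of all 14379 genes. The median log2 fold change, female over male, was 0.51 over the members and 0.05 over all genes. The sexes did not overlap in 6 members higher in females, against 12.3% of all genes, and in 1 lower in females, against 11.4%.

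In DRG 3 of 34 members tested met the criteria, all higher in females: Itga8, Itgb4 and Lamb2. The share of all 13963 genes was 2.01% in this direction and 2.96% in the other, where 0 members stood. No member passed the adjusted p in edgeR (smallest 0.307), against 0.0358% of all genes. An unadjusted p under 0.05 was found for 5 of the 34 (14.7%) and for 11.8% of all genes. DESeq2 put 1 member under an adjusted p of 0.05, against 348 of all 13963 genes. The count of 3 was 1 without female DRG 1 and 8 without female DRG 3. Over all genes, 177 higher and 460 lower in females met the criteria without female DRG 1, and 672 and 913 without female DRG 3. With every library 281 and 413 did. The median log2 fold change was 0.60 over the members and 0.02 over all genes. The sexes did not overlap in 5 members higher in females (7.46% of all genes) and in 0 members higher in males (10.4% of all genes).

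**Figure D2:**
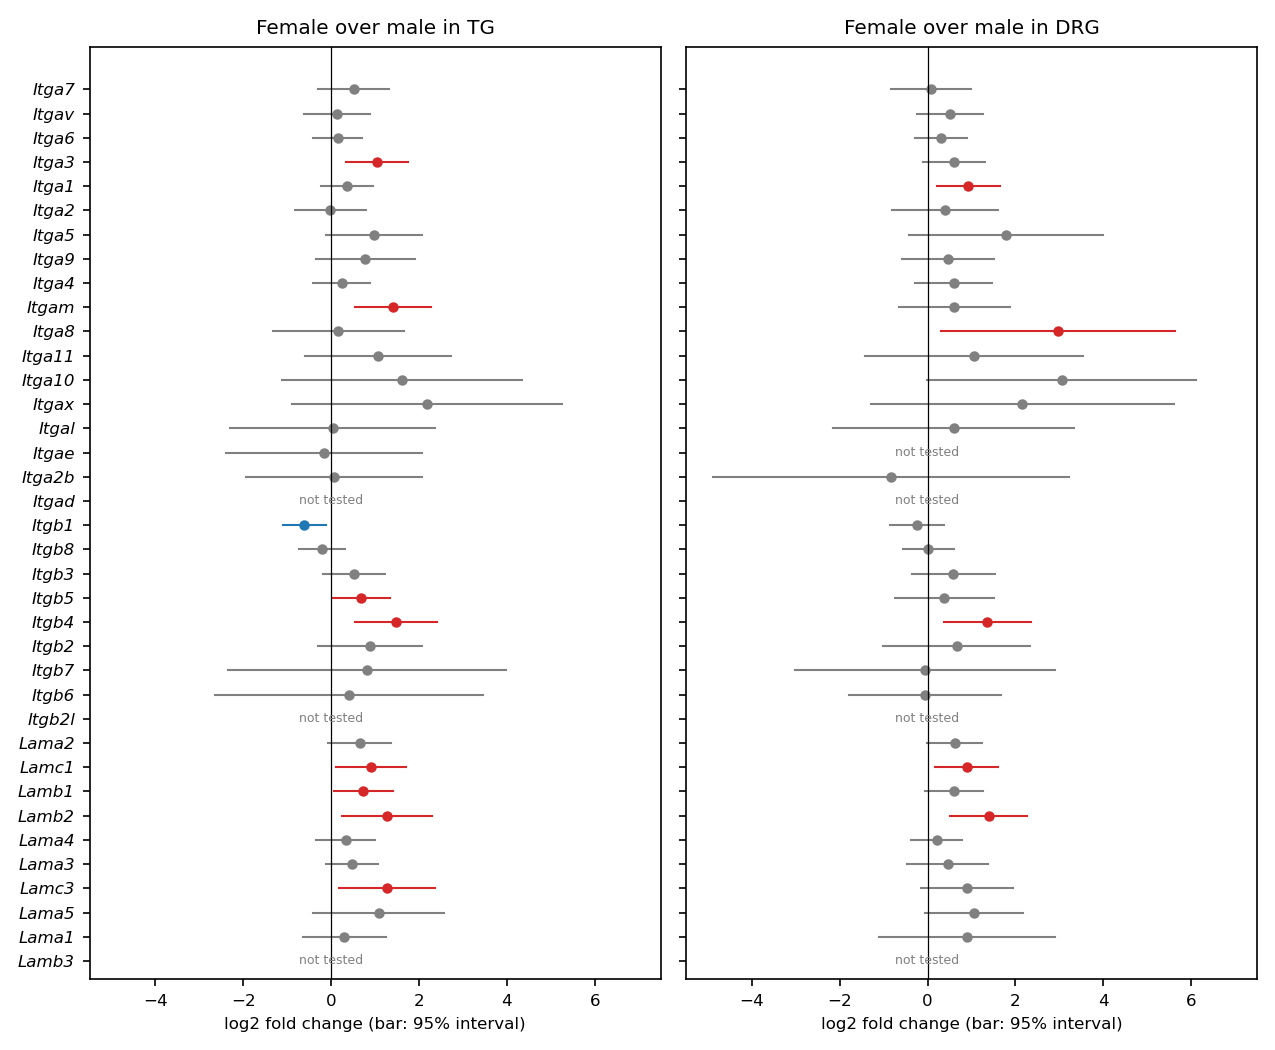
Log2 fold change, female over male, of the members tested in TG (left) and DRG (right), with the 95% interval of the edgeR fit of 3 against 3 libraries. Red marks an unadjusted p under 0.05 with a higher female level, blue the same with a higher male level and grey the rest. Most points lie to the right of 0, and Itgb1 in TG is the 1 blue point.

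With both ganglia in one model, the sex difference averaged over them met the study's criteria in 6 of 35 members, all higher in females: Itga10, Itga5, Itgb4, Lama5, Lamb2 and Lamc3. Of all 14829 genes 2.9% met them in this direction and 2.15% in the other. The adjusted p was under 0.05 for Itgb4, Lamb2, Itga3 and Lamc1, which were higher in females, against 2.39% of all genes, and for 0 members higher in males, against 5.5%. An unadjusted p under 0.05 was found for 13 of the 35 (37.1%) and for 26% of all genes. With the replicate number as a block Lamc1 was lost from the 4, and with same-numbered TG and DRG libraries summed 0 remained. Over all genes 1592 and 6 passed in these fits, against 1169 without block or sum. The 4 became 12 without female DRG 3, 10 without female TG 3 and 8 without male TG 3. In these fits 2487 of 15214, 2620 of 15204 and 1792 of 15211 genes passed. The 4 became 0 without any 1 of the libraries numbered 1 or 2, where 6 to 329 of all genes passed. Female DRG 1 and female TG 3 each had the lowest mean correlation of log2 CPM over all genes with the others of its group (0.841 and 0.882). Without both, 7 members passed, against 2145 of all 15178 genes. The median was 0.59 over the members and 0.01 over all genes. No member passed the adjusted p for an interaction of sex with ganglion (0% of all genes passed in edgeR, with 292 genes and 0 members at an unadjusted p under 0.05, and 0 members passed the adjusted p in DESeq2).

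Among the laminins, Lamb2, the β2 chain known from the neuromuscular junction and the kidney filter, had 121, 162 and 42.4 CPM in the 3 female TG libraries and 26.8, 47.1 and 67.0 in the 3 male ones. In DRG it had 164, 157 and 49.5 CPM in females and 40.4, 56.3 and 45.7 in males. Female libraries 1 and 2 of each ganglion stood above every male library, and female library 3 of each lay within the male range. The log2 fold change was 1.27 in TG (SE 0.46, edgeR adjusted p = 0.185), 1.39 in DRG (SE 0.41, adjusted p = 0.307) and 1.29 averaged (SE 0.33, adjusted p = 0.0285).

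Lamc1 had 391, 385 and 175 CPM in female TG and 117, 157 and 253 in male TG. In DRG the values were 401, 376 and 168 in females and 168, 179 and 166 in males. The same female libraries were high and the sexes overlapped in both ganglia through the libraries numbered 3. Its averaged log2 fold change was 0.87 (SE 0.25, edgeR adjusted p = 0.0456).

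Lamb1 had smaller differences, at 345, 359.8 and 195 CPM in female TG, 127, 204 and 233 in male TG, 355, 295 and 171 in female DRG and 173, 194 and 178 in male DRG. Lama2 had 420.5, 379 and 238 CPM in female TG, 146, 204 and 334 in male TG, 396, 428 and 236 in female DRG and 213, 226 and 253 in male DRG. For both genes female libraries 1 and 2 of each ganglion were above every male library of it and female library 3 was not. Neither passed the adjusted p (averaged log2 fold change 0.63 and 0.61, edgeR adjusted p = 0.0752 and 0.0909).

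Lamc3, a γ chain described in brain and nerve, had 25.2, 18.7 and 10.1 CPM in female and 3.19, 8.36 and 11.5 in male TG, and 19.9, 31.1 and 11.6 in female and 11.9, 6.76 and 14.7 in male DRG. Lama5, an α chain of mature vessels and epithelia, had 26.0, 40.7 and 4.10 CPM in female and 7.47, 7.18 and 20.2 in male TG, and 27.8, 27.4 and 7.45 in female and 12.2, 10.2 and 7.72 in male DRG. Female library 3 was the lowest of its group in both genes and both ganglia, and for Lama5 in TG the lowest of all 6. Averaged over ganglia the log2 fold changes were 1.07 (SE 0.36, edgeR adjusted p = 0.0727) and 1.04 (SE 0.46, adjusted p = 0.156). Lama4 had no call, with 161, 155 and 86.8 CPM in female TG, 81.2, 106 and 145 in male TG, 151, 154 and 107 in female DRG and 126, 125 and 107 in male DRG, and its averaged log2 fold change of 0.24 had a 95% interval of -0.18 to 0.66. Fitted log2 fold changes averaged over ganglia were above 0 for all 10 laminins tested, against 50.4% of all genes. In the same edgeR fit 6 of the 10 had an unadjusted p under 0.05, against 26% of all genes.

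**Figure D3:**
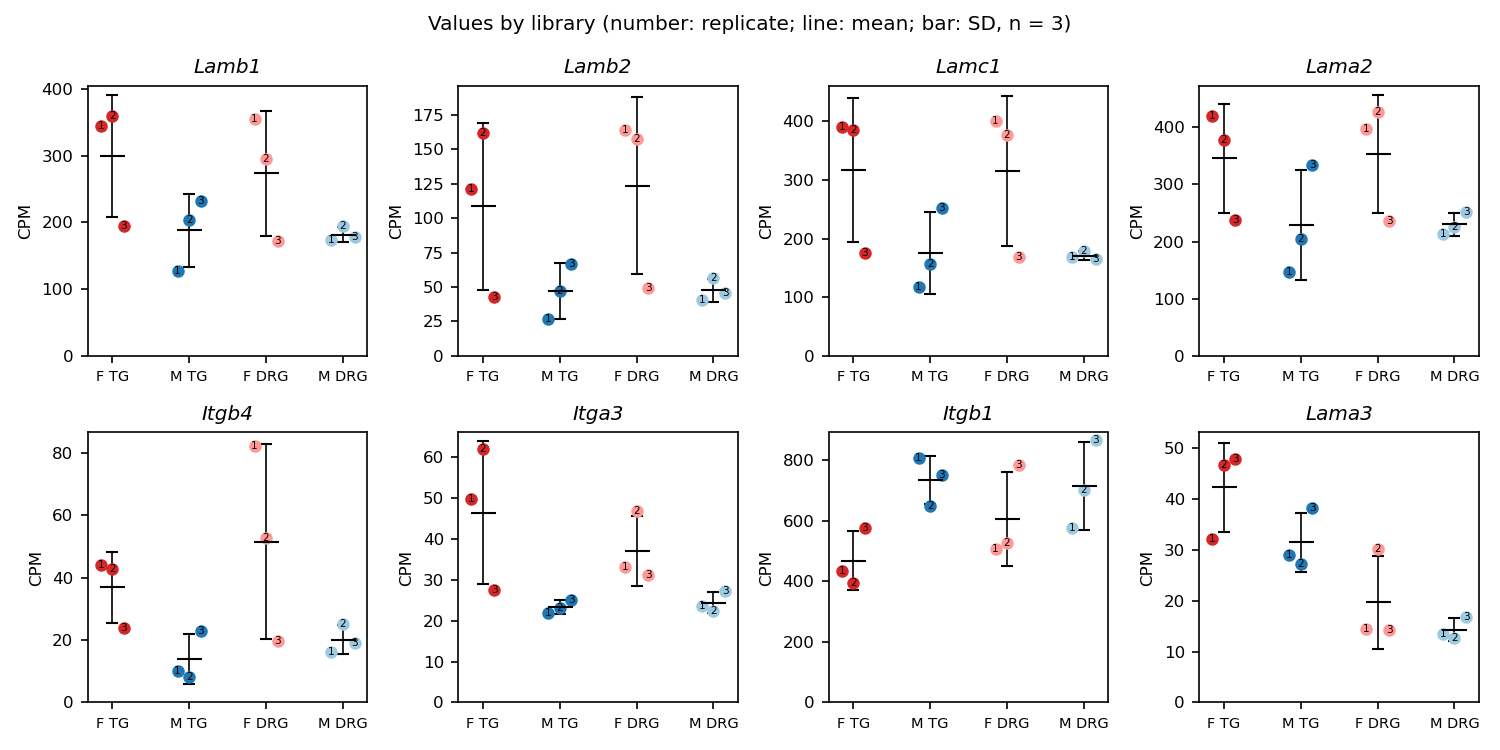
CPM of 8 members in every library, with the mean and SD of each group of 3 (F, female and M, male), and the replicate number inside each point. For the 4 laminins in the upper row, female libraries 1 and 2 stand above every male library of the same ganglion, and female library 3 does not. Itgb1 shows the opposite order in TG, and Lama3 is higher in TG than in DRG with 1 high female DRG library.

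Summed over the 11 chains, the laminin level was 171, 176 and 87.6 CPM per kb in female TG libraries 1 to 3 and 59.4, 83.4 and 121 in male TG. It was 176, 171 and 84.5 in female DRG and 82.2, 88.8 and 85.8 in male DRG. The ratio of Lamb2 to Lamb1, on the CPM per kb scale, was 0.620, 0.792 and 0.384 in female TG, 0.371, 0.408 and 0.508 in male TG, 0.815, 0.938 and 0.509 in female DRG and 0.412, 0.512 and 0.452 in male DRG. In DRG the ratios of female libraries 1 and 2 were above those of the other 4, and in TG female library 3 was below 2 of the 3 male ones. The γ level relative to the α level was 0.624 to 0.911 in female and 0.604 to 0.646 in male libraries.

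The 5 libraries with the highest laminin sum (121 to 176 CPM per kb) were also the 5 with the largest share of reads outside genes (47.7% to 50.4%). They were female TG 1 and 2, female DRG 1 and 2 and male TG 3. In that order, their summed CPM of the sensory neuron markers was 8181, 8215, 8393, 8805 and 8510, against 11037.4 to 14129.5 in the other 7. The part of neuron content in the laminin level was not tested. The other 7, at 59.4 to 88.8 CPM per kb, had 37.6% to 46.4% of reads outside genes. With that share as a covariate, a fit chosen after seeing the data, 0 members met either call rule for the averaged sex difference, and the members' median log2 fold change was 0.11 against 0.01 for all genes. Of all 14829 genes, 89 higher and 46 lower in females met the study's criteria in that fit, and 5 passed the adjusted p. Lamb2 then had a log2 fold change of 0.40 (edgeR adjusted p = 1.0), Itgb4 0.36 and Lamc1 0.11. What the reads outside genes stand for was not tested.

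**Figure D4:**
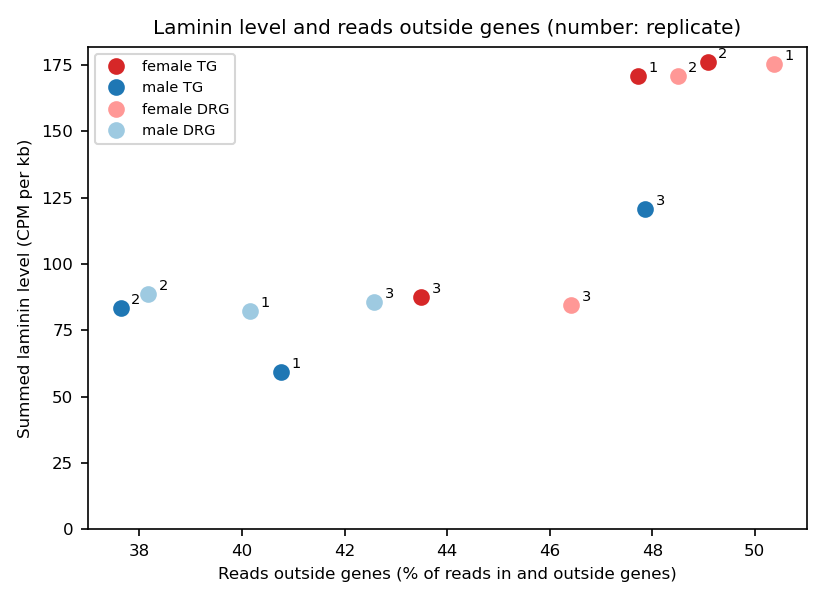
Summed laminin level (CPM per kb, y axis from 0) against the share of reads outside genes in percent (x axis) for the 12 libraries, with the replicate number beside each point. Male TG 3 is the 1 male library above 100 CPM per kb, and both female libraries numbered 3 lie with the other males in laminin level. On the x axis female TG 3 (43.5%) and female DRG 3 (46.4%) lie to the right of those males, which reach 42.6%.

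Exon length moved with sex as well. Over all genes, the median averaged log2 fold change ran from -0.52 in genes with under 1 kb of exon to 0.17 in those over 8 kb. With a correction of each library for exon GC content and length, 1 member met the study's criteria in TG (Itgam), 1 in DRG (Itga8) and 1 averaged (Itga8), and 0 passed the adjusted p. Over all genes, 228 higher and 88 lower in females of 14009 met the criteria in TG. In DRG 370 and 124 of 13963 did, and averaged 338 and 93 of 14829. The adjusted p was passed by 5, 5 and 7 genes in these fits. The averaged log2 fold change of Lamb2 was then 0.55, of Itgb4 0.71, of Lamc1 0.49 and of Itga3 0.20, and the members' median was 0.33 against 0.09 for all genes.

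**Figure D5:**
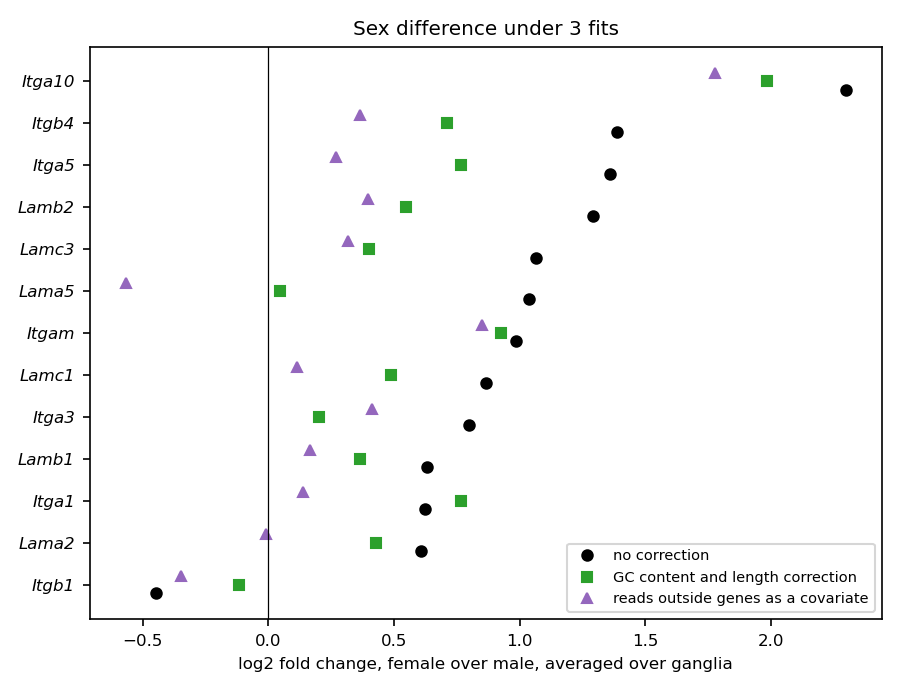
Averaged log2 fold change, female over male, of the 13 members with an unadjusted p under 0.05, in the uncorrected fit (circles), with the correction for GC content and exon length (squares) and with the share of reads outside genes as a covariate (triangles). Both corrections place most members nearer to 0, and Lama5 and Lama2 fall below 0 with the covariate.

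On the receptor side, Itgb4, the β4 subunit that pairs only with α6 and is known from hemidesmosomes and myelinating Schwann cells, had 44.3, 42.7 and 23.7 CPM in female TG and 10.2, 8.22 and 23.0 in male TG. In DRG it had 82.2, 52.7 and 19.8 in females and 16.3, 25.2 and 19.2 in males. Every female TG library was above every male one, while in DRG female library 3 lay within the male range. Its log2 fold change was 1.47 in TG (SE 0.42, edgeR adjusted p = 0.154), 1.36 in DRG (SE 0.46, adjusted p = 0.317) and 1.39 averaged (SE 0.33, adjusted p = 0.0234). Its exons overlap those of a transcript on the opposite strand, B230344G16Rik, and the strand setting of the counting is not given in the sources used here.

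Its partner Itga6 had no call, with 155, 154 and 97.6 CPM in female and 111, 122 and 148 in male TG and 119, 102 and 89.0 in female and 74.5, 79.5 and 96.9 in male DRG. The averaged log2 fold change of Itga6 was 0.20 (95% interval -0.17 to 0.57). Per kb, Itgb4 was 0.366, 0.357 and 0.313 of the Itga6 level in female TG and 0.118, 0.0867 and 0.20 in male TG, and 0.887, 0.664 and 0.286 in female and 0.281, 0.407 and 0.254 in male DRG.

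Itga3 had 49.8, 62.0 and 27.5 CPM in female TG, 21.9, 23.0 and 25.2 in male TG, 33.2, 46.9 and 31.3 in female DRG and 23.6, 22.3 and 27.2 in male DRG. Within each ganglion every female library exceeded every male one. The log2 fold change was 1.05 in TG (edgeR adjusted p = 0.158), 0.61 in DRG (adjusted p = 0.484) and 0.80 averaged (SE 0.22, adjusted p = 0.0394).

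Itgb1 went the other way. It had 434, 393 and 577 CPM in female TG and 805, 649 and 752 in male TG, with every female library below every male one. In DRG the sexes overlapped, with 505, 526 and 784 CPM in females and 576, 702 and 866 in males. The log2 fold change was -0.61 in TG (SE 0.22, edgeR adjusted p = 0.181) and -0.45 averaged (SE 0.18, adjusted p = 0.122), and neither passed the adjusted threshold.

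Set against its α partners, Itgb1 was in excess in all but 2 libraries. The ratio of Itgb1 to the summed level of the α subunits that pair with it, per kb, was 0.953, 0.876 and 2.77 in female TG and 3.05, 2.34 and 2.26 in male TG. In DRG it was 1.0, 1.18 and 3.44 in females and 1.66, 2.19 and 3.57 in males. Female libraries 1 and 2 of each ganglion had the 4 lowest ratios.

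The other matrix receptor subunits were less clear. Itga7 had 207, 186 and 64.8 CPM in female and 103, 115 and 115 in male TG, and 238, 177 and 74.4 in female and 216, 169 and 85.3 in male DRG, so that library 3 was the lowest of its group in 3 of the 4 groups. Its averaged log2 fold change was 0.25 (95% interval -0.38 to 0.89). Itgav had 191, 175 and 69.2 CPM in female and 135, 118 and 157 in male TG, and 243, 274 and 105 in female and 151, 170.4 and 120.2 in male DRG. Its sexes overlapped in both ganglia (0.29, -0.25 to 0.82).

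The β partners of αv gave no call. Itgb8 had 222, 199.8 and 153 CPM in female and 189, 229 and 268 in male TG, and 169.7, 218 and 158 in female and 187, 210.4 and 145 in male DRG, with an averaged log2 fold change of -0.12 (-0.49 to 0.24). Itgb3 had 129, 159.9 and 66.5 CPM in female and 75.6, 80.7 and 102 in male TG, and 166, 139.7 and 42.5 in female and 106, 76.0 and 53.3 in male DRG (0.51, -0.10 to 1.12). Female library 3 was again the lowest of its group for Itgb3 in both ganglia.

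The collagen receptor subunit Itga1 had 55.3, 62.7 and 43.6 CPM in female and 34.3, 40.8 and 54.7 in male TG, and 64.0, 49.4 and 45.1 in female and 27.7, 20.6 and 34.8 in male DRG, where the sexes did not overlap. Its log2 fold change was 0.93 in DRG (edgeR adjusted p = 0.328) and 0.62 averaged (adjusted p = 0.0661). With the GC and length correction the averaged value was 0.77, and with reads outside genes as a covariate 0.14. Itga2 had 17.0, 10.8 and 13.7 CPM in female and 12.7, 10.0 and 20.7 in male TG and 8.80, 19.2 and 6.44 in female and 5.70, 10.7 and 9.93 in male DRG (0.16 averaged, 95% interval -0.54 to 0.87).

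A further 4 members met the criteria from low counts. Itga10, a collagen receptor subunit of cartilage, had 31, 49 and 23 counts in female and 0, 17 and 17 in male TG, and 72, 73 and 26 in female and 0, 18 and 5 in male DRG. The sexes did not overlap, but 2 male libraries were at 0 counts, and the averaged log2 fold change of 2.30 had an SE of 0.99 (edgeR adjusted p = 0.148). Itga5, the fibronectin receptor subunit, had 120, 173 and 66 counts in female and 46, 62 and 73 in male TG, and 230, 201 and 74 in female and 0, 62 and 113 in male DRG (1.36, SE 0.63, adjusted p = 0.176).

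Itga8, which pairs with β1 and binds nephronectin, met the criteria in DRG, from 143, 72 and 35 counts in females and 24, 13 and 0 in males, against 22, 100 and 48 in female and 59, 37 and 49 in male TG. Its log2 fold change was 2.96 in DRG (SE 1.23, edgeR adjusted p = 0.386) and 0.17 in TG. The interaction had an unadjusted p of 0.0675 in edgeR and 0.0391 in DESeq2, from 0.0280 to 0.211 with 1 library left out, and did not pass the adjusted p in any of these fits. Its exons overlap a transcript on the opposite strand, E030013I19Rik.

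Itgam, the αM subunit of macrophages, had 160, 197 and 186 counts in female and 39, 116 and 58 in male TG, which did not overlap on the CPM scale, and 109, 137 and 62 in female and 83, 50 and 95 in male DRG. Its log2 fold change was 1.41 in TG (SE 0.40, edgeR adjusted p = 0.154) and 0.98 averaged (adjusted p = 0.0813). The summed CPM of 11 macrophage markers was 216 to 674 (median 461) in female and 220.0 to 406 (median 286) in male libraries, with at most 1 marker at 0, and its part in the value of Itgam was not tested. The leukocyte partner Itgb2 had an averaged log2 fold change of 0.75 (95% interval -0.26 to 1.77).

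The remaining members had no call. Of the subunits of vascular cell adhesion and tenascin receptors, Itga4 had 15.6 to 44.5 CPM and Itga9 5.91 to 30.0 over the 12 libraries, with averaged log2 fold changes of 0.40 (-0.13 to 0.92) and 0.59 (-0.18 to 1.36). Itga11, a fibroblast collagen receptor, had 1.40 to 6.25 CPM and Itga2b, the platelet subunit, 0 to 3.01. Itgal, Itgax and Itgae, of leukocytes, reached at most 9.16, 7.85 and 2.55 CPM. Among the β subunits, Itgb5 had 6.10 to 44.2 CPM (0.50 averaged, edgeR adjusted p = 0.331), Itgb6 0 to 7.54 and Itgb7 0 to 4.26. Lama1, the embryonic α chain, had 1.26 to 10.1 CPM. None of these members met either call rule for the averaged sex difference, and Itgb2 and Lama3 did not either.

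Markers of fibroblasts, endothelial and mural cells had higher female medians, as the laminins had. The sum of 10 fibroblast markers was 1089 to 2369 (median 1759) CPM in female and 669.5 to 1696 (median 1169.8) in male libraries, of 10 endothelial markers 408 to 847 (median 651) and 291 to 548 (median 424), and of 10 mural cell markers 302 to 723 (median 421) and 253 to 379 (median 309). At most 1 of 10 fibroblast and 1 of 10 mural markers was at 0 in a library, and 0 endothelial markers were. The ranges of the sexes overlapped in each list, although 3 endothelial, 3 mural and 1 fibroblast marker passed the adjusted edgeR p for sex. The part of these cell types in the laminin and integrin values was not tested. Lymphocyte, neutrophil, platelet and red cell markers were low, with sums of at most 10.7, 127, 28.9 and 37.3 CPM in any library.

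The second comparison asked how TG and DRG differ. The rule, a fold above 2 with an adjusted p under 0.05, was met by 1 of 35 members, Lama3, which was higher in TG, against 0.479% of all genes, and by 0 members higher in DRG, against 0.29%. Lama3, the α chain of laminin-332 and related epithelial laminins, had 32.2, 46.7 and 47.9 CPM in female TG and 29.1, 27.3 and 38.1 in male TG. In DRG it had 14.5, 30.2 and 14.2 in females and 13.5, 12.6 and 16.8 in males. Female DRG 2 lay within the TG range and the other 5 DRG libraries lay below all 6 TG libraries. The log2 fold change, TG over DRG, was 1.12 (SE 0.24, edgeR adjusted p = 0.0307), 1.01 with the GC and length correction (adjusted p = 0.0635) and 1.12 with the reads outside genes as a covariate (adjusted p = 0.0286). With 1 library left out at a time the log2 fold change stayed at 1.03 to 1.35, and the adjusted p was above 0.05 without any 1 of 8 of the 12 (all but female DRG 2, female TG 1, female TG 3 and male DRG 3).

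Lamb3, the β chain that joins Lama3 in laminin-332, had 0 to 6 counts. Of the integrins that bind laminin-332, Itga6 was 0.50 (SE 0.18) on the log2 scale, TG over DRG, at an edgeR adjusted p of 0.319, and Itga3 and Itgb4 were 0.13 and -0.52. Itgb5 was 0.68 (adjusted p = 0.542). The median over the members was 0.02, against -0.01 over all genes.

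The ligands and partners of these receptors were read from lists of the same pathway. Between TG and DRG, 1 of 12 counter-receptors and 1 of 9 latent TGF-β genes were higher in TG by the rule used for Lama3, and 0 genes of the other lists passed in either direction. All adjusted calls for sex in these lists rest on the uncorrected fit: over all genes they numbered 1169 there, 7 with the GC and length correction, 5 with reads outside genes as a covariate, 6 with same-numbered libraries summed and 6 to 2620 with 1 library left out. Of 24 further matrix ligands tested, 7 were higher in females at an adjusted p under 0.05 and 1 lower (2.39% and 5.5% of all genes), with a median averaged log2 fold change of 0.77. Hspg2, the basement membrane proteoglycan perlecan, had 405 ± 243 CPM in female and 127 ± 55.1 in male TG, and 406 ± 252 in female and 166 ± 6.56 in male DRG (SD, n = 3 each; 1.48, edgeR adjusted p = 0.0260). Vtn, the αv ligand vitronectin, was 1.17 (adjusted p = 0.0229), and Tgfbi, a matrix protein induced by TGF-β, 1.12 (adjusted p = 0.0230). Fn1, fibronectin, the ligand of α5β1, was -1.22 in TG over DRG (adjusted p = 0.0701).

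Of 8 collagen IV, XV and XVIII chains, 3 were higher in females at an adjusted p under 0.05 and 0 lower. These were Col15a1 (1.26, edgeR adjusted p = 0.0446), Col4a2 (1.08, adjusted p = 0.0456) and Col18a1 (1.28, adjusted p = 0.0469). Col4a6 was at 0 counts in all 6 DRG libraries, against 2.14 ± 0.465 CPM in female and 0.439 ± 0.645 in male TG (adjusted p = 0.187 for TG against DRG).

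Of 13 laminin receptors outside the integrins, Bcam, the Lutheran receptor of laminin α5, was the 1 higher in females (0.63, edgeR adjusted p = 0.0328) and 0 were lower. Dag1, dystroglycan, was 0.64 (adjusted p = 0.130), and the syndecans Sdc3 and Sdc1 were 0.75 for sex and -0.69 for TG over DRG (adjusted p = 0.108 and 0.391). Of 12 counter-receptors on cells, Adam15 was the 1 higher in females (1.06, adjusted p = 0.0181). Adam23, a surface protein that binds αvβ3, was higher in TG (1.20, SE 0.17, adjusted p = 0.000731), with 632 ± 165 CPM in female and 702 ± 90.2 in male TG and 278 ± 33.6 in female and 304 ± 6.90 in male DRG. Icam1, a ligand of β2 integrins, and L1cam were 1.41 and 0.47 for sex (adjusted p = 0.120 and 0.153).

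Inside the cell, 34 adhesion complex genes were tested, of which 4 were higher and 2 lower in females at an adjusted p under 0.05, with a median of 0.37. Tgfb1i1, the focal adhesion protein Hic-5, was 1.14 (edgeR adjusted p = 0.0284) and Slc3a2, a β1-binding membrane protein, 0.68 (adjusted p = 0.0284). Cd151, the tetraspanin that holds laminin-binding integrins, was lower in females (-0.86, adjusted p = 0.0256). Tln2, a talin that links β tails to actin, was 0.65 in TG over DRG (adjusted p = 0.0546).

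Of 9 genes for latent TGF-β and the proteins that hold it, which αv integrins act on, 2 were higher in females and 0 lower. They were Lrrc32, the surface anchor GARP (2.19, edgeR adjusted p = 0.0140), and Ltbp4, a matrix anchor (1.59, adjusted p = 0.0319). Ltbp1 was 0.78 (adjusted p = 0.0719). Ltbp2, a fibrillin-like matrix protein, was higher in TG (2.30, SE 0.37, adjusted p = 0.00222), with 20.5 ± 11.8 CPM in female and 16.9 ± 3.29 in male TG and 4.65 ± 1.59 in female and 3.05 ± 1.01 in male DRG.

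In build mm9, the build of the counts, Lamb2 (ENSMUSG00000052911.4) lies at chromosome 9, 108382193 to 108392861, plus strand, Lamc1 (ENSMUSG00000026478.8) at chromosome 1, 155066052 to 155179916, minus strand, Itgb4 (ENSMUSG00000020758.9) at chromosome 11, 115836023 to 115869726, plus strand, Itga3 (ENSMUSG00000001507.9) at chromosome 11, 94905788 to 94938115, minus strand, Itgb1 (ENSMUSG00000025809.8) at chromosome 8, 131209554 to 131257100, plus strand and Lama3 (ENSMUSG00000024421.9) at chromosome 18, 12492533 to 12741522, plus strand. Counts are over the exons of each gene. Itgal, Itgam, Itgax and Itgad lie on chromosome 7. Of the members, 7 overlap exons of a gene on the opposite strand: Itga4, Itga7, Itga8, Itgad, Itgav, Itgb4 and Lamc3.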

How the data were processed

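Per the labels and methods, ganglia were dissociated, enriched for neurons on a Percoll gradient and sequenced as rRNA-depleted, dUTP stranded total RNA. The authors aligned reads to mm9 with TopHat2 and deposited raw HTSeq counts per gene symbol, the unit used here. The strand setting and versions are not given in the sources used here. A further 5 summary lines per library are not genes and were left out, apart from the reads outside genes, given as a share of reads in and outside genes.

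Genes were filtered by filterByExpr, scaled by TMM and tested with the quasi-likelihood test of edgeR 4.0.16 in R 4.3.3, for sex in the 6 libraries of each ganglion and for the averaged sex effect, TG against DRG and the interaction in all 12. Adjustment followed Benjamini-Hochberg over every gene in the fit. The study's own criteria used RPKM and a DESeq test. Here CPM stood in for RPKM, and DESeq2 1.42.0 was an alternative. Exon lengths, GC content and mm9 positions came from GENCODE (21627 of 22609 genes, all 38 members, matched by symbol), and promoters from RefSeq. The GC and length correction was a loess offset (span 0.3) per library. The scripts were tested on simulated data.

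Members named with values were those with the highest mean level (6 integrin α, 3 integrin β and 5 laminin genes), those meeting a call rule, and partners of these. Further members are given by their ranges. 1 member is counted but not reported here. The pathway genes were at most 4 per list, with the smallest unadjusted p for the averaged sex effect or TG against DRG. The members and lists were chosen with earlier results of these data known. Depth of 7511765 to 15396090 reads in genes put the floor of 3 counts at 0.207 to 0.357 CPM, which covers counting error only.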

Additional observations from a re-analysis of the deposited data

How the results depend on the processing

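Members meeting the study's criteria numbered 5 in TG, 3 in DRG and 6 averaged over ganglia. They became 1, 1 and 1 with the GC and length correction, and 9, 5 and 12 with a fold above 1.5. Over all genes the correction gave 228 higher and 88 lower in females in TG, 370 and 124 in DRG and 338 and 93 averaged. A fold above 1.5 gave 1452 and 1266 genes in TG, 536 and 1109 in DRG and 1279 and 1676 averaged. In DRG the members meeting them were 8 without TMM factors, against 583 genes higher and 165 lower in females. Without the filter they were 6 in DRG, against 340 and 462 genes. Averaged they were 10 by DESeq2, against 565 and 316 genes. Leaving out 1 library gave 2 to 9 members in TG, 1 to 8 in DRG and 2 to 9 averaged. All genes higher in females by the criteria then numbered 308 to 1301, 177 to 672 and 281 to 688. Those lower numbered 151 to 1231, 188 to 913 and 200 to 707. By adjusted p, DESeq2 called 3 members in TG and 1 in DRG where edgeR called 0, and leave-one-out gave 0 to 13 in TG and 0 to 0 in DRG. Over all genes DESeq2 called 817 in TG and 348 in DRG, and leave-one-out gave 5 to 3394 and 5 to 10. Averaged over ganglia the 4 adjusted calls became 9 without TMM factors, 9 by DESeq2, 0 with the GC and length correction and 0 to 12 in leave-one-out fits. Over all genes the 1169 adjusted calls became 1419, 2324, 7 and 6 to 2620 in these fits. Without TMM factors the median of all genes was 0.16 in TG, 0.19 in DRG and 0.17 averaged.

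Chosen after seeing the data, the share of reads outside genes as a covariate gave 0 averaged calls by either rule, with Lama2 at -0.0105 and Lama5 at -0.57. Over all genes it gave 89 higher and 46 lower in females by the study's criteria and 5 by the adjusted p. Without female DRG 1 and female TG 3 there were 7 averaged adjusted calls, against 2145 of all 15178 genes. For TG against DRG the 1 call became 0 with the GC and length correction, 0 without that pair of libraries and 0 to 1 in leave-one-out fits. Over all genes the 114 calls became 101, 227 and 71 to 162 in these fits. The interaction had 0 calls by adjusted p in every fit run. At a fold above 2 and an unadjusted p under 0.05 it had 1, Itga8, by DESeq2, without the filter, and without female DRG 3, female TG 2 or male DRG 1, and 1, Itga7, without that pair. In the fits with Itga8, 47 to 317 of all genes passed with a positive interaction and 47 to 115 with a negative one. Without that pair 411 and 401 genes did. The causes of these changes were not tested.

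The replicate numbers were not taken to pair the samples, since no source says that they do and not every correlation was over 0.1. Deviations of same-numbered libraries correlated at -0.10, 0.01 and -0.09 between the sexes in TG, 0.11, 0.03 and 0.17 in DRG, 0.03, 0.12 and 0.21 between ganglia in females and 0.04, 0.12 and 0.22 in males. Between the sexes in DRG each library correlated best with its own number, as did libraries 2 and 3 between ganglia in both sexes, a hint from the data and not from the design. With the replicate block the criteria called 2 members in TG, 3 in DRG and 5 averaged, and with the block and the GC and length correction 1 in TG and 1 in DRG. Over all genes the block gave 514 higher and 319 lower in females in TG, 223 and 442 in DRG and 340 and 334 averaged. With block and correction these were 187 and 94 in TG and 263 and 125 in DRG. With same-numbered TG and DRG libraries summed, 8 members met the criteria and 0 passed the adjusted p. Over all genes 576 were then higher and 295 lower in females by the criteria, and 6 passed the adjusted p. Summed and corrected for GC and length, 1 and 0 members did, with Lama5 at -0.0234. Over all genes that fit gave 260 higher and 125 lower, and 6 passed the adjusted p.

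Of 528 log2 fold changes of single members over the alternatives, 399 kept their direction and side of the threshold of the edgeR or DESeq2 test, 126 kept the direction and lost the call, and 3 changed sign. At 3 libraries a group, members with few counts, such as Itga8 and Itga10, have wide intervals, and Itgad, Itgb2l and Lamb3 lie too near 0 counts to compare.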
